A study of Mus musculus with 2 samples.

Results

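Accessible chromatin was examined at 37 genes of the neuronal cytoskeleton and of regulated secretion, taken by symbol from the GENCODE M21 annotation of mm10. All 37 symbols were found among the 21755 protein-coding genes of the autosomes and chromosome X. The set is defined by gene symbol and function. The material was whole embryos of 11 days of the mouse strain B6NCrl, pooled from males and females, in 1 group with 2 biological replicates that have separate biosample entries and a common donor entry. DNase-seq cuts chromatin with the enzyme DNase I, which reaches DNA mainly where nucleosomes leave it free. No other stage, tissue or treatment was measured, so the comparisons are between the replicates and between these genes and all protein-coding genes. A whole embryo mixes neurons with all other cells, and a peak carries no cell type, so a weaker peak from fewer cells cannot be told apart from one of lower accessibility in each cell.

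The 37 genes make parts that a neuron needs to extend processes and to release transmitters and peptides. Tubulins, stathmins and microtubule-associated proteins build and remodel microtubules, and neurofilaments fill the axon. Neuronal RNA-binding proteins control splicing and stability of transcripts. SNARE proteins with synaptotagmins and complexins fuse vesicles with the membrane, and granins fill dense-core vesicles with peptide precursors. In cells that are not neurons many neuronal genes are known to be bound by the repressor REST, also called NRSF, through an element called RE1.

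The lists held 204697 peaks in replicate 1 and 231103 in replicate 2, with 179603 and 197152 hotspots, the broader regions of enriched cleavage. Each peak has the authors' score, a whole number from 1 to 150, which was used to rank peaks of 1 list and is no ratio of signal. The read depth is unknown, so a missing peak does not show closed chromatin.

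Matches to RE1 are shown first. This element was searched because it is known at many neuronal genes, so matches at these genes were foreseeable. The counts describe which matches lay in peaks. The search used the left arm TTCAGCACC and the right arm GGACAGCGC with 2 unspecified bases between them, on both strands, and allowed up to 4 mismatches among the 18 specified bases. Of the 15 matches with at most 3 mismatches inside a peak of both replicates, 12 are printed here, and those of Syt4 and Celf4 are given by their values only. The sequences are written 5′ to 3′ on the strand of the match from the GRCm38 (mm10) reference of NCBI RefSeq. Capitals mark the bases that equal the searched letters. Lower case marks mismatches and the 2 unspecified bases.
Stmn2 (chr3:8508230-8508249, plus strand): TTCAGCACCacGGACAGCGC
Dcx (chrX:143904875-143904894, plus strand): TTCAGCACCatGGACAGCaC
Snap25 (chr2:136714338-136714357, plus strand): TTCAGCACCgcGGACAGCGa
Chga (chr12:102555238-102555257, plus strand): TTCAGCACCtcGGACAGCaC
Nefm (chr14:68125724-68125743, plus strand): ggCAGCACCaaGGACAGCGC
Nefh (chr11:4949398-4949417, plus strand): TTCAGCACCacGGACAGCag
Elavl3 (chr9:22053870-22053889, plus strand): TTCAGCACCacaGACAGCGg
Map1b (chr13:99564538-99564557, plus strand): TTCAGCACCatGGAgAGCGa
Chga (chr12:102550694-102550713, plus strand): TTCAGgACCacGGACAGCGa
Tubb3 (chr8:123414456-123414475, plus strand): gTCAGCACCtcGGACAGCaa
Nefm (chr14:68188517-68188536, plus strand): TTCAGCACCatGGcgAGCGa
Ina (chr19:47006515-47006534, minus strand): gTCAGtACCtcGGACAGCtC

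The perfect match at Stmn2, which encodes a stathmin of growing axons, lay at -1.1 kb from the transcription start site (TSS), where negative distances are upstream. Its peak scored 72 in replicate 1 and 88 in replicate 2. Counted from 1 at the 5′ end of the 20-base element, the Dcx match differed from the searched letters by G19A, and so did the Chga match inside the promoter peak. The Snap25 match differed by C20A and the Nefh match by G19A and C20G. The mismatches of these 4 matches thus fell in the last 2 bases of the right arm. The Elavl3 match was changed within the right arm at G12A and at its end by C20G, while the Nefm match nearest to its gene had T1G and T2G and an intact right arm.

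The peaks around these matches were of middle to high score. The Snap25 match lay 0.9 kb downstream of the TSS in an intron, in a peak that scored 102 in replicate 1 and 116 in replicate 2 and that held another match with 4 mismatches. At Chga, which encodes the granin chromogranin A, the promoter peak that contains the match scored 95 and 110. A further Chga match at -4.3 kb was in a peak of 102 and 105. The Nefm match at -0.9 kb was in a peak of 108 and 109, and the Nefh match at -1.3 kb in one of 86 and 92. Nefm and Nefh encode the medium and heavy neurofilament subunits. The Elavl3 match at -1.9 kb had 61 and 75. Lower scores belonged to the Dcx match in its own intron at 28.4 kb (53 and 68), the Map1b match at -48 kb (56 and 74), the Tubb3 match in an intron at 3.0 kb (51 and 78) and the Ina match at -8.2 kb (60 and 78). Lowest of the printed set was the outer Nefm match at -63.7 kb, with 38 in replicate 1 and 52 in replicate 2. All of these 12 matches but 1 were in peaks that scored above 50 in both replicates.

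At up to 4 mismatches, 15 of the 37 genes had an RE1 match inside a peak of both replicates within their territory, against 5.58% of all genes. The territory of a gene comprises every base for which its 5'-most TSS is the closest among protein-coding genes. The 15 are Tubb3, Dcx, Stmn2, Stmn3, Map1b, Nefm, Nefh, Ina, Elavl3, Celf4, Snap25, Syt4, Syn2, Chga and Vgf. At up to 2 mismatches it was 9 of the 37, against 1.99% of all genes. A long territory has more room for matches. Among genes with territories between 34 and 225 kb, the middle range of the 37, it was 9 of 19 of them, against 576 of 10597 genes, or 5.44%. Syt4, encoding a synaptotagmin of vesicles, had a match with 1 mismatch in its promoter peak, which scored 90 in replicate 1 and 99 in replicate 2. Celf4, encoding an RNA-binding protein, had 5 matches with 3 or 4 mismatches in peaks of both replicates in its large territory. Their peaks had scores of 55 to 104 in replicate 1 and 56 to 103 in replicate 2.

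Matches close to the searched letters were usually inside peaks, here as in the genome. In the territories of the 37 genes there were 14 matches with up to 2 mismatches, and 10 of them, at 9 genes, were inside peaks of both replicates (71.4%, against 78.7% of the 609 such matches in the genome). With exactly 1 mismatch it was 4 of 6 (66.7%), against 93.4% in the genome. All 14 were inside hotspots of both replicates, against 83.9% in the genome. The 4 outside peaks lay next to one. The gap to the nearest peak was 24 bp in both replicates at Celf3, 9 bp in both at Vgf, 31 and 51 bp at Syp, and 28 and 8 bp at Chgb. With 4 mismatches, 13.8% of 58 matches in these territories were in peaks of both replicates, against 4.62% of 12850 in the genome. Those in peaks were only 8 matches at 5 genes, and some shared a peak with another match. Of the shared promoter peaks of the 37 genes, 6 of 79 held a match (7.59%), against 0.807% of all shared promoter peaks. Of their shared distal peaks, 12 of 505 did (2.38%), against 0.992% of all. Whether REST was bound was not measured.

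**Figure D1:**
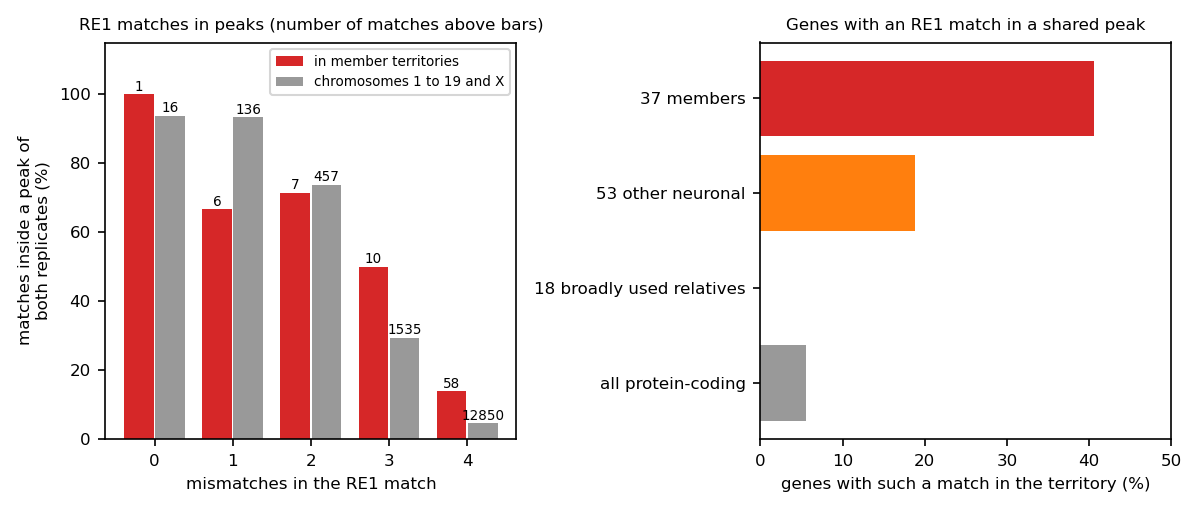
Left, percentage of RE1 matches inside a peak of both replicates by number of mismatches, for the territories of the 37 genes (red) and for chromosomes 1 to 19 and X (grey), with the number of matches above each bar. Right, percentage of genes with a match of up to 4 mismatches in a peak of both replicates; the 37 genes stand at 15 of 37 and all protein-coding genes at 5.58%.

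A list of 53 other neuronal cytoskeleton and vesicle genes had such a match at 10 of 53. Among 18 relatives of these genes that many cell types use, such as widely expressed tubulins and SNARE proteins, it was 0 of 18. Among 8 neural progenitor markers it was 0 of 8, and among 7 adult endocrine markers 2 of 7. Over all genes it was 5.58%, so such matches were not confined to the neuronal lists. Lists of 18 and 8 genes are too short to show that 0 lies below that share. These lists were drawn up with results of the data known, and these counts are descriptions of them.

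All 37 genes had a promoter peak, a peak within 500 bp of any annotated TSS, in replicate 1, in replicate 2 and in both. Among all genes the shares were 71.2% in replicate 1, 72.1% in replicate 2 and 70.3% in both. The 53 other neuronal genes also had one each in both replicates, as did the 18 widely used relatives and the 8 progenitor markers. Of 7 adult endocrine markers 3 did, with Ins2, Gcg, Pomc and Dbh lacking one. A promoter peak was therefore shared by these neuronal lists and by widely used genes alike and did not single out the 37. Their scores, however, were lower at the median and the upper quartile, though not at the lower quartile. The best promoter peak of the 37 genes had a median of 119 in replicate 1 and 124 in replicate 2, against 124 and 130 over all genes with a promoter peak. The upper quartile was 126 and 131, against 135 and 138, and the lower quartile 99 and 109, against 99 and 107. In both replicates at once 21 of the 37 were below the median, against 44.1% of all genes with a promoter peak in both replicates. The 53 other neuronal genes had medians of 114 and 119, and the 18 relatives 134 and 137. Over the 37 genes the score was higher in replicate 2 at 29, lower at 7 and equal at 1. Of all genes with a promoter peak in both replicates, 82.1% were also higher in replicate 2.

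**Figure D2:**
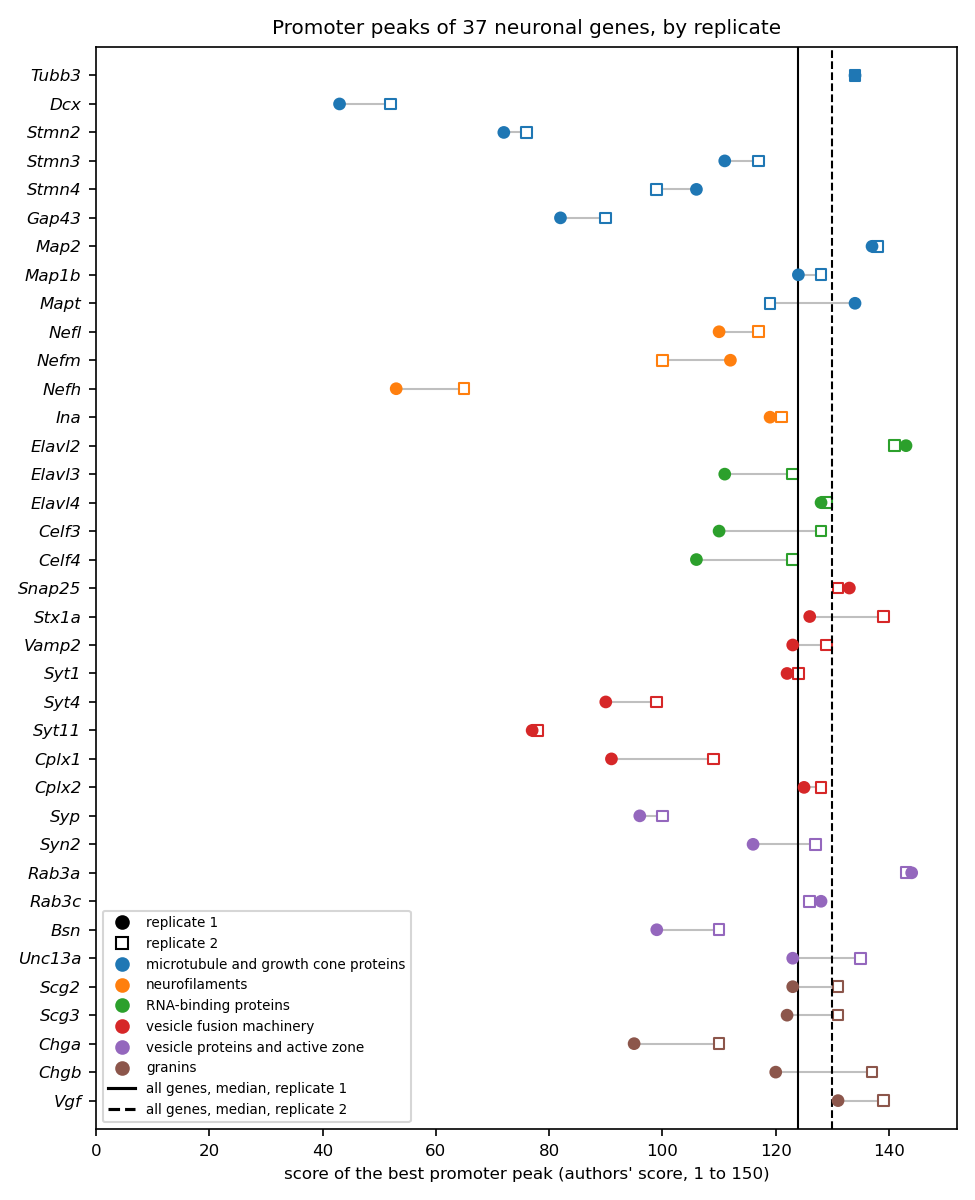
Score of the best promoter peak of each of the 37 genes in replicate 1 (filled circles) and replicate 2 (open squares), coloured by role, with the medians over all genes with a promoter peak as vertical lines at 124 and 130. Dcx (43 and 52) and Nefh (53 and 65) lie farthest left, and Rab3a (144 and 143) and Elavl2 (143 and 141) farthest right.

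The 9 microtubule and growth cone genes spanned nearly the whole range. Dcx, which encodes doublecortin of migrating young neurons, had the weakest promoter peak of the 37, with 43 in replicate 1 and 52 in replicate 2. That put it at the 5.28 and 6.24 percentile of genes with a promoter peak. Stmn2 came next in this group with 72 and 76, and Gap43, encoding a growth cone protein, had 82 and 90. The other 2 stathmins were higher, Stmn3 with 111 and 117 and Stmn4 with 106 and 99. The highest of the group were Map2, encoding a microtubule-associated protein of dendrites, with 137 and 138, and Tubb3, encoding the neuronal beta-tubulin, with 134 in each replicate. Map1b, encoding a microtubule-associated protein of growing axons, had 124 and 128. Mapt, encoding tau, had 134 in replicate 1 and 119 in replicate 2, a difference of -15 and the most negative of the 37. Stathmins, Gap43 and Dcx were thus below both medians over all genes, and Map2 and Tubb3 above them.

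Among the neurofilament genes, Nefl (light subunit) had 110 in replicate 1 and 117 in replicate 2, Nefm (medium subunit) 112 and 100, and Ina (alpha-internexin) 119 and 121. Nefh, the heavy subunit, stood apart at 53 and 65. All of the Ina promoter peaks were also within 500 bp of a TSS of the neighbouring gene Nt5c2, so they cannot be given to Ina alone. All 4 genes were below the medians over all genes in both replicates.

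Of the RNA-binding protein genes, Elavl2, encoding a neuronal Hu protein that binds AU-rich transcripts, had 143 in replicate 1 and 141 in replicate 2. Its relatives Elavl4, with 128 and 129, and Elavl3, with 111 and 123, came below it. Celf3 and Celf4, encoding splicing regulators, had 110 and 106 in replicate 1 and 128 and 123 in replicate 2. Celf3 and Cplx1 had the largest positive difference of replicate 2 minus replicate 1 among the 37, 18 each.

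The fusion genes had a group median of 122.5 in replicate 1 and 126 in replicate 2. The 3 SNARE genes of the synapse were close together, Snap25 with 133 and 131, Stx1a (syntaxin) with 126 and 139, and Vamp2 (synaptobrevin) with 123 and 129. Syt1, the calcium sensor of fast release, had 122 and 124. Its relatives were lower, Syt4 with 90 and 99 and Syt11 with 77 and 78. Complexins, which bind the assembled SNARE complex, also differed from each other: Cplx2 had 125 and 128, and Cplx1 had 91 and 109. In both replicates each of the 3 SNARE genes scored above Syt4, Syt11 and Cplx1.

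Of the vesicle and active zone genes, Rab3a, encoding a small GTPase of synaptic vesicles, had the highest promoter score of the 37 in each replicate, 144 and 143. Rab3c, its relative, had 128 and 126. Unc13a, which primes vesicles, had 123 and 135, and Syn2, which tethers them, 116 and 127. Bsn, encoding the active zone scaffold bassoon, had 99 and 110, and Syp, encoding a vesicle membrane protein, 96 and 100. Of the granin genes, Vgf had 131 in replicate 1 and 139 in replicate 2, Scg2 and Scg3 had 123 and 122 in replicate 1 and 131 each in replicate 2, and Chgb had 120 and 137. Chga, with 95 and 110, was the lowest granin gene in each replicate.

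Hotspots gave less room for ranking. At the promoter, 36 of the 37 genes in replicate 1 and all 37 in replicate 2 had a hotspot at the ceiling of 100 of the deposited −log10 q value, against 65.8% and 67.0% of all genes. The exception was Dcx in replicate 1, at 4.39. The shares over all genes include genes without a promoter peak, and only 71.2% of all genes in replicate 1 and 72.1% in replicate 2 had one. The widest promoter hotspot of each gene had a median width of 1130 bp in replicate 1 and 1197 bp in replicate 2, against 1124 and 1292 bp over all genes with one. Syt11 had the narrowest, 250 and 238 bp. Of the 88 promoter peaks of the 37 genes in replicate 1, 9 were found in that replicate only (10.2%, against 13.1% of all promoter peaks), and of the 93 in replicate 2 it was 15 (16.1%, against 16.7%). Most best peaks sat on a start site: in 26 of 37 genes the midpoint of the best peak was within 100 bp of the nearest TSS, with a median distance of 46 bp. This distance was not computed for all genes, so it cannot be called particular to the 37.

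CpG content varied widely among these promoters. The observed-to-expected CpG ratio, over 500 bp to each side of the 5'-most TSS, had a median of 0.630 for the 37 genes and 0.558 for all genes. Low values belonged to Vgf (0.168), Stmn2 (0.255), Stmn4 (0.257), Celf3 (0.283), Dcx (0.319), Stmn3 (0.354) and Gap43 (0.358). Microtubule and growth cone genes had a group median of 0.358, neurofilament genes 0.803. Vgf, Stmn2 and Stmn4 were in deciles 1 to 3 of all genes by this ratio, where 22.0% of genes had a promoter peak in both replicates. The ratio belongs to the 5'-most TSS, and at Vgf, Celf3, Elavl2, Syt11 and Rab3c the best promoter peak was at another start site. At Vgf that start site was 3903 bp downstream and its peak held 12 CpG. At Celf3 it was 6032 bp downstream and the peak held 10 CpG. The low ratios of these genes therefore do not describe the DNA under their best peaks. The best promoter peak of Dcx contained 0 CpG, as 1.5% of all shared promoter peaks did, and the median over the 37 best peaks was 14, against 11 over all shared promoter peaks. The latter set also holds peaks that are not the best of their gene. These values thus do not show that the 37 genes differ in CpG under their peaks. Nefh did not follow the CpG-poor genes with weak peaks, since its ratio was 0.795.

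**Figure D3:**
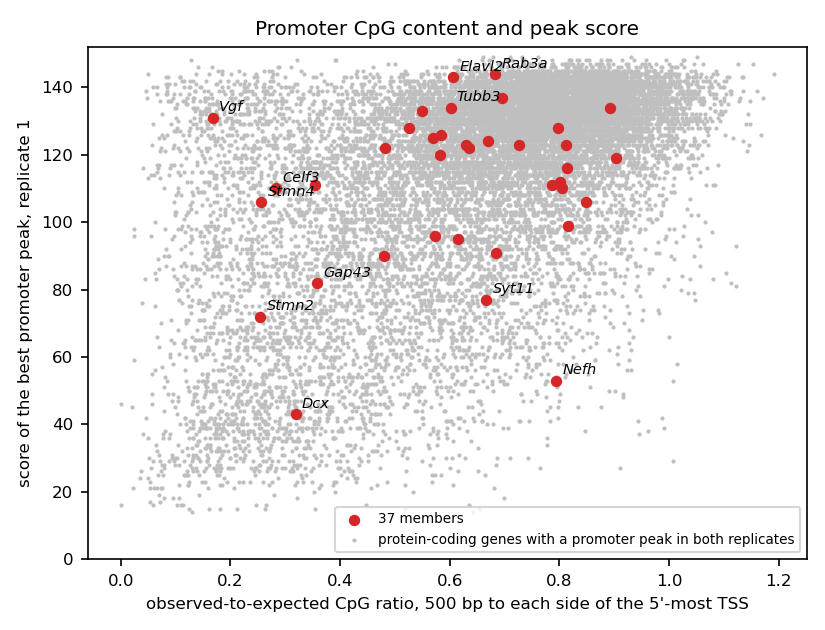
Observed-to-expected CpG ratio around the 5'-most TSS (horizontal) and score of the best promoter peak in replicate 1 (vertical) for the 37 genes (red) and for all genes with a promoter peak in both replicates (grey). Dcx (0.319, score 43) and Stmn2 (0.255, score 72) lie low and left, and Nefh (0.795, score 53) low and right. Vgf (0.168, score 131) lies high and left, although its peak is at a TSS 3903 bp downstream of the one whose ratio is plotted.

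Several genes carry more than 1 promoter, and their start sites differed in peaks. Start sites within 500 bp of each other were joined into 1 promoter. Of the 37 genes 22 had several (59.5%, against 60.1% of all genes). Of the 103 promoters of all 37 genes, 61 had a peak in both replicates (59.2%, against 39.8% of all promoters). The latter share includes promoters of genes without any promoter peak, whereas each of the 37 had one. At Elavl2 the strongest peak was not at the first start site, which had 48 in replicate 1 and 54 in replicate 2, but at a promoter 24289 bp further on, with 143 and 141. Another Elavl2 promoter at 28716 bp had 110 and 128. Elavl4 had peaks at 6 of its 8 promoters, with 128 and 129 at the first and, at 5 others lying 59187 to 65020 bp downstream, scores of 57 to 88 in replicate 1 and 66 to 91 in replicate 2. Map2 had them at 3 of 10, Map1b at 4 of 5, and Mapt at 1 of 4. Syt11 had its best peak, 77 and 78, 2565 bp downstream of a first start site with 37 and 42. Rab3c had 35 and 58 at its first start site and 128 and 126 at the next, 811 bp downstream. Vgf was the only one of the 37 whose 5'-most TSS had no peak in both replicates, and its peak of 131 and 139 was at a promoter 3903 bp downstream, from which 3 annotated transcripts start.

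Short sequence motifs were counted in the 79 shared promoter peaks of the 37 genes, on both strands, as a description. The peaks of 4 genes are printed on the strand of the gene, with the parts that lie outside annotated exons, from the same reference. Capitals mark the E-box CAGCTG, the TATA box spelled TATAAA, the cAMP response element TGACGTCA and the CCAAT box, each in either orientation. They are shown for a TATA box or a cAMP response element (CRE) close to a start site.
Elavl3 (chr9:22052024-22052125, minus strand): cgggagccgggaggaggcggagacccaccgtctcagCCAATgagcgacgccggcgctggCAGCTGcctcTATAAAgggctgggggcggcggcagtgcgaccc
Vgf (chr5:137030116-137030259, plus strand): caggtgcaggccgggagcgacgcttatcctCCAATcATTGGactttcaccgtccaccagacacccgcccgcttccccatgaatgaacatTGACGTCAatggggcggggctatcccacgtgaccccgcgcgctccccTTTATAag
Snap25 (chr2:136713336-136713452, plus strand): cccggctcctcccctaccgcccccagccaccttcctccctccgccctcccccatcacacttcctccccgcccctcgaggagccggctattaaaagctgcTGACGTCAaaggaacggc
Celf3 (chr3:94484176-94484325, plus strand): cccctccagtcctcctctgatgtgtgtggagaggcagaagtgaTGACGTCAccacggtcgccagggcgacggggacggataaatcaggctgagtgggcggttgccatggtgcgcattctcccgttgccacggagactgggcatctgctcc

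TATAAA was in 9 of the 79 promoter peaks (11.4%), against 2.1% of all shared promoter peaks. At Nefl and Elavl3 it was on the strand of the gene with its first base at -32 and -33 bp from the TSS. Others were placed differently, such as that of Map1b at -161 bp, that of Celf3 at -225 bp, and that of Vgf at -43 bp on the opposite strand. Elavl3 in addition held CAGCTG, an E-box, with its first base at -43 bp. CAGCTG was in 15 of 79 (19%), against 10.9% of all. TGACGTCA was in 4 (5.06%), against 1.7%, and the 4 genes were Scg2 at 29 bp downstream of the TSS, Snap25 at -14, Celf3 at -104 and Vgf at -86. These 4 distances are from the middle of the motif, not from its first base. CCAAT was in 26.6%, against 20.4%, and the GC box GGGCGG in 34.2%, against 43.6%. CAGATG was in 7.59%, against 6.99%, TAATTA in 1.27%, against 0.803%, and TTGGCA in 5.06%, against 5.28%. Median GC content was 62.7% in these peaks and 64% in all. Letters alone do not show that a factor binds. The CRE and TATA counts rest on 4 and 9 peaks.

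The distal peak of Stmn2 that holds the perfect RE1 match is printed next with the match in capitals, as an example of the 150-base peaks behind these counts. The Rab3a promoter peak, the highest-scoring of the 37 genes, is printed up to the first exon, with CCAAT in capitals.
Stmn2 (chr3:8508156-8508305, plus strand): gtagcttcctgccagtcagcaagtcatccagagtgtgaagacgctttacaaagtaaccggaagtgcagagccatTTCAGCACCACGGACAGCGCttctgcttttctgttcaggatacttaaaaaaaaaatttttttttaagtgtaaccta
Rab3a (chr8:70754536-70754678, plus strand): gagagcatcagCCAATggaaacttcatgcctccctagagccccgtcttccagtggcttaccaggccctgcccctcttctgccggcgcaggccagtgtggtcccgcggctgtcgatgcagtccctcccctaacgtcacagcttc

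Distal peaks, whose midpoint is over 1 kb from every protein-coding TSS, were counted in the territory of each gene. The 37 territories held 505 distal peaks found in both replicates, of 125447 in all, and each of the 37 held at least 1, while 29.6% of all genes held none. The median count was 9, against 2 over all genes, in territories of 118 kb, against 46.9 kb. Per 100 kb of territory the median was 7.36, against 4.12, and 26 of the 37 were above the median over all genes. Pooled over the territories the density was 4.70, against 4.90 in all, so the higher median did not hold for the summed territories. Counting only peaks over 2.5 kb from a TSS, the median was 4.11 per 100 kb, against 3.09.

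By count the order began with 4 genes of large territories. Celf4 had 74 shared distal peaks in 2551.87 kb, Rab3c 60 in 953.6 kb, Gap43 54 in 1445.8 kb and Map1b 32 in 278.2 kb. By density Tubb3 came first, with 5 peaks in 8.21 kb, or 60.9 per 100 kb. Rab3a had 26.9, Vgf 24.1, Elavl3 20.5 and Cplx2 18.3 per 100 kb. At the other end stood Cplx1 with 1.19, Chgb with 1.55, Syt1 with 1.71 and Elavl2 with 2.18. Cplx1 and Cplx2, which encode related proteins, thus lay at opposite ends, with 1 and 24 shared distal peaks. By role the group medians were 10.3 per 100 kb for neurofilament genes, 9.46 for microtubule and growth cone genes, 8.46 for vesicle and active zone genes, 5.92 for fusion genes, 4.29 for RNA-binding protein genes and 2.81 for granin genes.

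**Figure D4:**
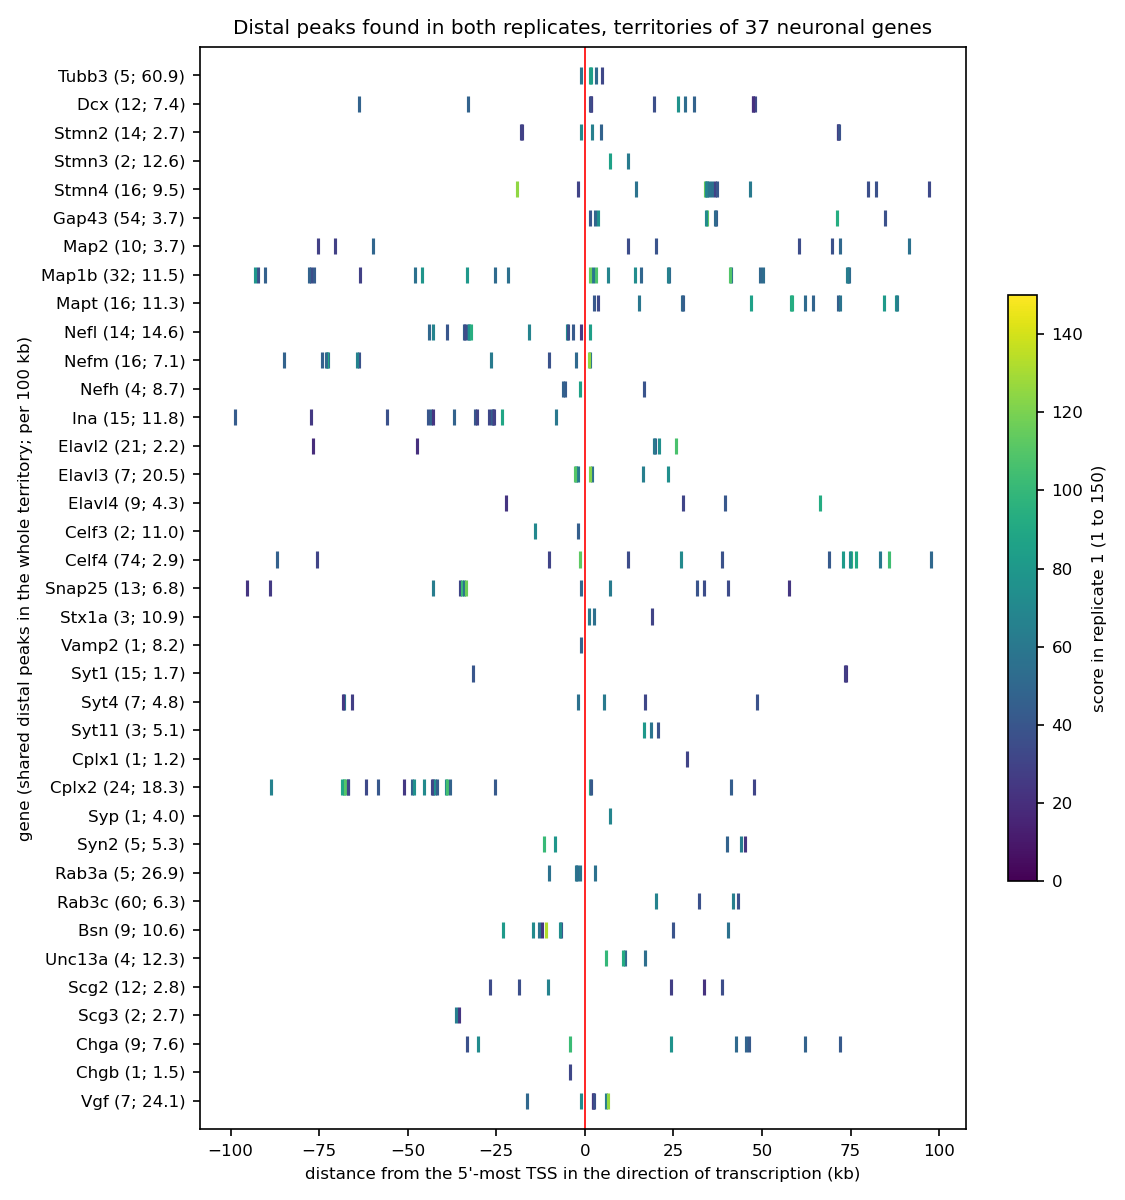
Distal peaks found in both replicates within 100 kb of the 5'-most TSS of each of the 37 genes, drawn by the distance of their midpoint in the direction of transcription and coloured by score in replicate 1. Labels give the number of shared distal peaks in the whole territory and per 100 kb, and the row of Tubb3 holds 5 peaks close to the start site while that of Cplx1 holds 1.

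The replicates differed in how many distal peaks they gave. Replicate 1 had 662 in these territories and replicate 2 had 715, and 18 genes had more in replicate 2, 11 fewer and 8 as many. Of all 21755 genes, 8877 had more in replicate 2, 4063 fewer and 8815 as many. Of the distal peaks in these territories, 23.7% in replicate 1 and 29.9% in replicate 2 were found in that replicate only, against 22.0% and 32.1% over all distal peaks. Gap43 had 70 in replicate 1 and 93 in replicate 2, and Map2 had 10 and 19. In the other direction Rab3c had 88 and 81 and Cplx2 had 31 and 27. Distal peak scores had medians of 40.5 in replicate 1 and 47 in replicate 2, against 41 and 46 over all distal peaks.

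Of the 505 shared distal peaks, 160 were in introns and 13 in exons of their own gene, 98 were in another protein-coding gene and 234 between genes. Together 53.7% were inside genes, against 45.9% of all shared distal peaks. Their distances were longer: 43% were over 100 kb from the 5'-most TSS, against 32.6% of all, and the median distance was 73.6 kb, against 49.8 kb. Up to 10 kb it was 13.7%, against 17.8%. These shares pool all peaks, and Celf4, Rab3c and Gap43 held 74, 60 and 54 of the 505. A territory also bounds the possible distance, and the median territory was 118 kb, against 46.9 kb over all genes. Territories of equal size were not compared for distance. A peak is given to a territory by distance only, so it need not act on that gene.

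The highest-scoring distal peak of each gene ranged from scores of 30 (Cplx1) and 32 (Chgb) to 133 (Bsn) in replicate 1. The Bsn peak lay at -10.9 kb and had 133 in replicate 1 and 140 in replicate 2, above the best promoter peak of Bsn in each. The Gap43 peak at -235.1 kb between genes had 129 and 125, and also exceeded its promoter peak. The Nefm peak in its own intron at 1.2 kb had 125 and 133, and that of Stmn4 at -19.2 kb 125 and 119. The Rab3c peak had 129 and 140 but was in another gene, 458.4 kb from the TSS. Snap25 had one of 117 and 130 at -33.4 kb. That of Elavl3, in its own intron at 1.4 kb, had 122 and 121. At Dcx the best distal peak, in its own intron at 26.4 kb, had 76 and 85, above its promoter peak of 43 and 52. Nefh likewise had 86 and 92 at -1.3 kb, the peak with the RE1 match, above 53 and 65 at its promoter. Dcx and Nefh, the genes with the lowest promoter scores, thus each had a higher-scoring peak elsewhere in the territory. The same held in both replicates at Bsn, Gap43, Nefm, Stmn4, Rab3c and Syt11, so it was not particular to Dcx and Nefh. A low promoter score is exceeded more easily, and the share over all genes was not computed.

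Motif counts in the 505 shared distal peaks were closer to those of all distal peaks than at promoters. CAGCTG was in 20.6%, against 18.5%, CAGATG, an E-box of proneural factors, in 20.2%, against 18.7%, and TAATTA, a homeodomain core, in 3.56%, against 3.35%. CCAAT was in 20.2%, against 17.1%, and TATAAA in 3.17%, against 4.98%. TTGGCA was in 8.91%, against 8.46%, GGGCGG in 8.71%, against 8.28%, and TGACGTCA in 0.594%, against 0.357%. Median GC content was 51.3% in both.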

How the data were processed

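DNase-seq peaks and hotspots of both replicates were used, as called by the authors for each replicate on mm10, per the file headers and labels. No aligner, caller or filter is named (not given in the sources used here), and the files hold no reads, so depth is unknown and no counting error can be stated. The deposited peak score runs from 1 to 150 and its construction is not given. The deposited hotspot value is a −log10 q value with a ceiling of 100.

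Genes were taken from GENCODE M21 and sequence from GRCm38. Gene IDs on chromosomes 1 to 19 and X were counted. Peaks of both replicates that overlapped by 1 bp or more counted as shared. The replicate 1 peak stands for a shared one. Distal distance was measured from the peak midpoint. All 37 genes were named, and of the other lists the genes without a promoter peak in both replicates. A few of these items are not reported here. For each gene at most the highest-scoring shared distal peak was named apart from peaks with RE1 matches. Printed RE1 matches are the 12 with the fewest mismatches in a peak of both replicates, without those of Syt4 and Celf4. The promoter and distal peaks whose sequence is printed were chosen after their values were seen. Genes and peaks are not replicates, so no p-value is given. The 37 genes, the other lists and the motifs were chosen with earlier results of these data known. The scripts were tested on simulated data. Alternatives were other windows, start sites, distances, overlaps, score limits, mismatch limits and leaving out a replicate. Python 3.11.15, numpy 2.4.6 and pandas 2.3.3 were used.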

Additional observations from a re-analysis of the deposited data

How the results depend on the processing

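The count of 37 genes with a promoter peak in both replicates became 36 with a window of 250 bp (Chgb lost), with the 5'-most TSS only (Vgf lost) and with the better-scoring part of each list (Dcx lost). It stayed at 37 in the other settings, which were a window of 1000 bp, start sites of coding transcripts only, hotspots in place of peaks, and each replicate alone. The median distal density of the 37 genes, 7.36 per 100 kb against 4.12 for all genes, was 4.11 over 2.5 kb from a TSS (all genes 3.09), 3.44 over 5 kb (2.03) and 3.39 with the better-scoring part of each list (1.18). With a single replicate it ranged from 9.23 to 9.38, against 5.29 and 6.25 for all genes, and it was 7.36 with an overlap of at least 75 bp. In each of these settings it was above that of all genes. Genes with an RE1 match in a peak numbered 12 at up to 3 mismatches (all genes 3.52%), 22 at up to 5 (all genes 13.7%), 19 with peaks widened by 75 bp to each side (7.1%), 16 with replicate 2 alone (6.7%) and 15 with replicate 1 alone (6.24%). The count of 21 genes below the median score was set against 44.1% of all genes with a promoter peak in both replicates. It was 21 with windows of 250 bp (44.5%) and 1000 bp (44.2%) and 22 with the 5'-most TSS only (43.9%). With a single replicate the share is of genes with a promoter peak in that replicate. The count was then 26 with replicate 2 alone (49.3%) and 25 with replicate 1 alone (48.9%). These alternatives for the score were chosen after seeing the data. No paired analysis was possible because there is only 1 group. Depth is unknown, so a peak found in 1 replicate only may reflect depth, the library or the embryos.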
